A study of Mus musculus with 25 samples.

Results

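The Hox genes are described here on 25 single-colour Agilent arrays of mouse colon RNA. They were chosen by name, as every gene that the array calls Hoxa, Hoxb, Hoxc or Hoxd followed by a number. The array named 39 such genes with 45 probes, and 31 of the 39 passed a filter that asked for a signal well above background on 3 or more of the 25 arrays. All mice were C57Bl/6j females of 8 weeks, and each array held RNA of 1 mouse. Card9 is a signalling adaptor of fungal recognition in myeloid cells, which Card9-/- mice lack by genotype. The mice labelled Card9-/- gave 3 arrays at day 0, 4 at day 7 and 5 at day 12. The WT mice gave 3 arrays at day 0, 5 at day 7 and 5 at day 12. Day 0 mice had received no dextran sulphate sodium (DSS), a polymer that injures the colon lining, while day 7 mice had drunk it at 2% for 7 days and day 12 mice had then had 5 days of plain water. The design names 5 Card9-/- mice at day 7, and the other one was not analysed here. The labels name the tissue only as colon and do not say which stretch of the colon was taken.

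Hox genes encode homeodomain transcription factors that sit in 4 clusters, HoxA to HoxD, and carry numbers by their order along the cluster. Low-numbered genes are active further towards the head and high-numbered genes further towards the tail, and in the gut this order lasts into adult life, mainly in the muscle and connective tissue and for some genes in the epithelium. Hoxb13 is known from the hindgut, the rectum and the prostate, and genes of the HoxD cluster are known from the budding caecum of the mouse embryo.

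Each signal is the background-corrected intensity on a log2 scale, set relative to the 75th percentile of its own array, so 0 is as bright as that percentile. Values are compared between arrays for 1 probe at a time. Between 48.0% and 67.9% of the spots of an array were well above background, with the highest share on WT day 12 replicate 5. The Card9 probe was well above background on 12 of 12 arrays labelled Card9-/- (-1.52 to -0.48, median -0.76). On arrays labelled WT it was so on 2 of 13 (-6.84 to -2.93, median -6.00). This goes against the labels. Whether the labels are exchanged, which would reverse every genotype contrast, was not tested. Where the probe lies relative to the deleted part was not tested either. Card9-/- below therefore means the arrays so labelled. Cdx1, a caudal-type homeobox factor of intestinal epithelium, was bright on every array, between 6.48 and 7.33. Card9-/- day 0 replicates 1 and 2 and WT day 7 replicate 1 stood apart from the other 22 arrays in their Hox values, and the tested differences that rest on them are also given without them. In RNA of whole tissue, fewer cells of a type and less RNA per cell cannot be told apart.

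HoxA was the cluster seen most evenly: all 11 of its genes passed the filter and 9 of them were well above background on every array. HoxB had 9 of 10 genes past the filter and 5 on every array. HoxC had 5 of 9 and HoxD 6 of 9 past the filter, and no gene of either was well above background on all 25. In all, 14 Hox genes were seen on every array and 4 more on 24. Hoxb1, Hoxc8, Hoxc11, Hoxc12, Hoxc13, Hoxd1, Hoxd3 and Hoxd9 did not pass, and Hoxb1, Hoxc11 and Hoxc13 were well above background on no array. For 6 genes, among them Hoxa3, Hoxa9, Hoxa13, Hoxb3 and Hoxd11, the array held several probes, and the brightest was used. Hoxc10 had no value on WT day 0 replicate 3, where its spot carried an outlier flag, and its fits drop that array.

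**Figure D1:**
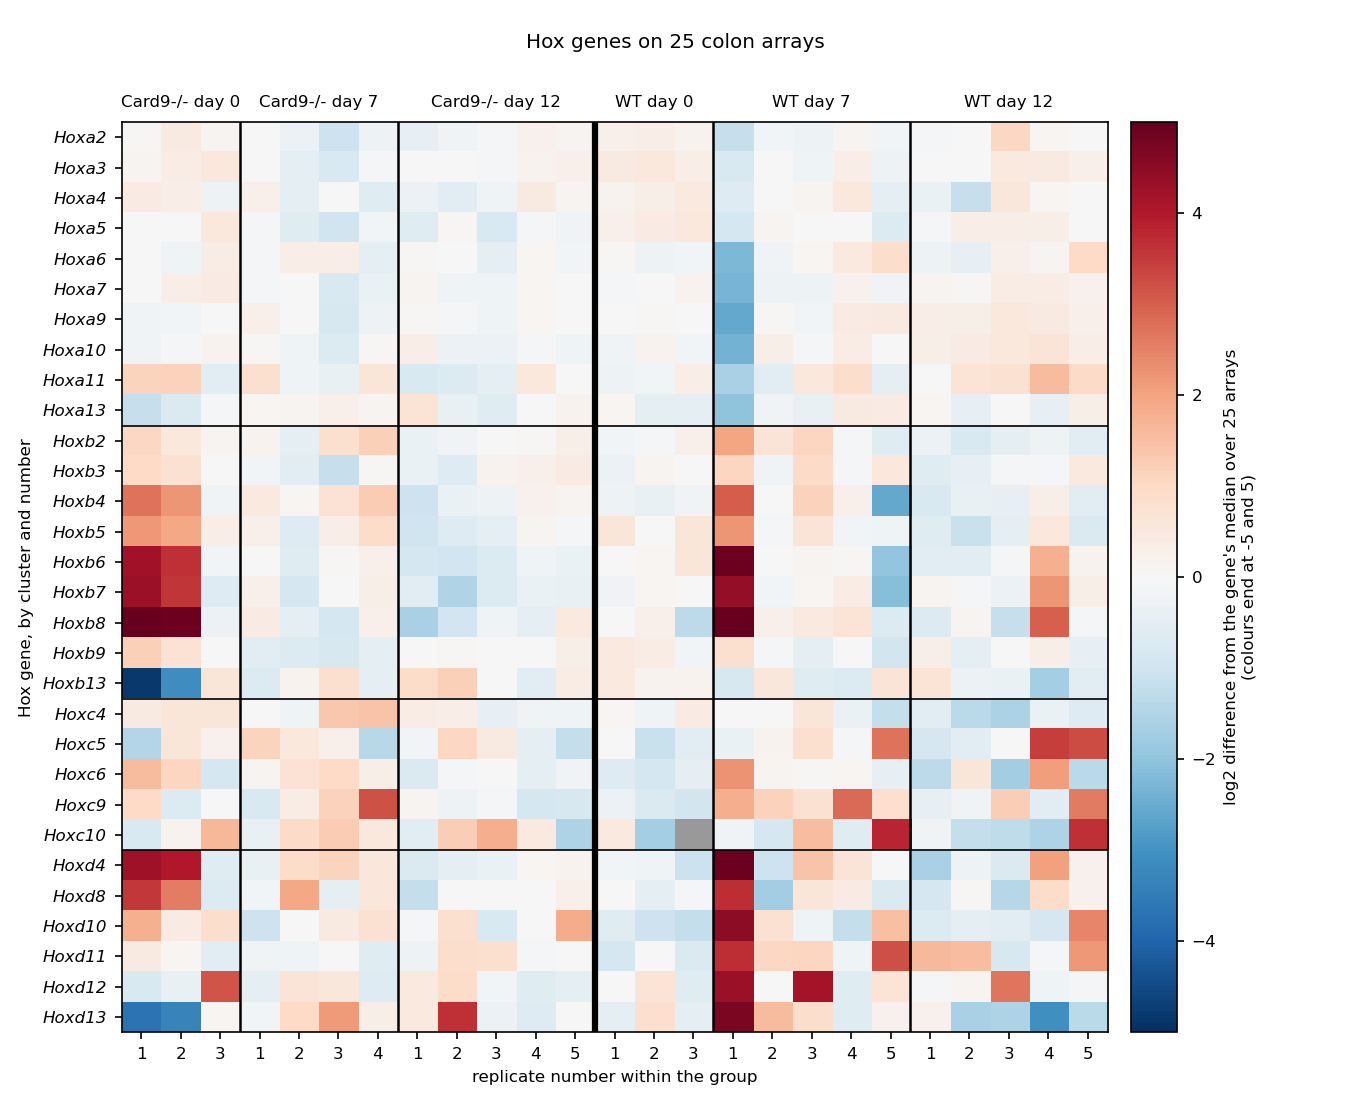
Signal of Hox genes (rows, by cluster and number) on 25 arrays (columns, by group and replicate), as log2 difference from the median of the gene over all arrays. Dark red and dark blue cells stand 5 or more above or below that median, and the grey cell of Hoxc10 has no value. The 3 arrays with red blocks from Hoxb4 to Hoxb8 and at Hoxd4 and Hoxd8 are Card9-/- day 0 replicates 1 and 2 and WT day 7 replicate 1.

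Wide Hox differences lay between single arrays of 1 group. Hoxb8, a mid-cluster gene read by a probe at chr11:96146576-96146635 (mm9, plus strand, as the array files place it), was at 1.78 and 1.27 on Card9-/- day 0 replicates 1 and 2 and at 1.99 on WT day 7 replicate 1. On the other 22 arrays it lay between -5.22 and -0.64, with a median of -3.76. No array of those 22 reached the 3, and the gap to their median was 46.5-fold on Card9-/- day 0 replicate 1. Hoxb6 and Hoxb7, its neighbours in the cluster, followed the same order. Hoxb6 was at 2.57, 2.00 and 3.25 on these 3 arrays, against -3.61 to 0.13 on the other 22. Hoxb7 was at 2.51, 1.81 and 2.64, against -3.89 to 0.43. For all of Hoxb6, Hoxb7 and Hoxb8 the highest of the 22 was WT day 12 replicate 4, and for none did the 22 overlap the 3.

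Hoxd4, a low-numbered gene of the HoxD cluster on another chromosome, split the arrays the same way. It was at 0.55 and 0.34 on Card9-/- day 0 replicates 1 and 2 and at 1.22 on WT day 7 replicate 1, against -5.29 to -1.60 on the other 22. Hoxd8 was at -1.05, -2.02 and -0.86, against -6.30 to -2.64. Hoxb4 was at 0.67, 0.14 and 0.96, against -4.62 to -0.80, and Hoxb5 at 1.10, 0.87 and 1.17, against -2.17 to -0.12. The ranges did not overlap for any of these genes. Averaged over Hoxb4 to Hoxb8, Hoxd4 and Hoxd8, the 3 arrays lay 3.79, 3.25 and 4.11 above the gene medians. The next array was WT day 12 replicate 4 at 1.54, and WT day 7 replicate 3 followed at 0.66. These 7 genes were picked out after their values were seen. All 7 stayed above their medians on the 3 arrays after normexp background correction, after quantile normalization and in the submitters' value table, whose scaling is not stated, with means no lower than 2.41.

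Markers of some other cell types moved with the same arrays, and others split them. All 11 smooth muscle genes were above their medians on each of the 3, with means of 1.07, 0.82 and 1.42, against -1.25 to 0.74 on the other 22. All 6 adipocyte genes were above theirs, with means of 1.89, 1.17 and 2.50, against -2.48 to 2.15. All 14 leukocyte genes were below their medians on both Card9-/- arrays (means -2.83 and -2.96) and 10 of 14 on WT day 7 replicate 1 (-1.35), against -1.95 to 1.27 on the 22. The other day 0 arrays were low in leukocyte genes too, at -1.954, -0.966 and -1.798 in WT and -1.509 in Card9-/- mice. The 12 epithelial genes averaged 0.08, 0.16 and -0.11, inside the -0.35 to 0.24 of the 22. Of 12 fibroblast genes 0, 0 and 10 were above their medians, with means of -0.923, -0.891 and 0.395, inside the -1.675 to 1.422 of the 22. Of 10 endothelial genes 1, 1 and 7 were above, with means of -0.584, -0.844 and 0.127, against -0.649 to 1.02. The part of these cell types in the Hox values was not tested.

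The 3 arrays differed from each other at the high-numbered ends of HoxB and HoxD. Hoxb13, with its probe at chr11:96057854-96057913 (mm9, plus strand), was at 1.52 on Card9-/- day 0 replicate 1 and 3.24 on replicate 2, the lowest values of the series, but at 5.56 on WT day 7 replicate 1, inside the 4.66 to 7.53 of the other 22 arrays. Hoxd13, known for its work in the hindgut, the anus and the limbs, was not well above background on the same Card9-/- arrays, at -7.38 and -7.04. On WT day 7 replicate 1 it was at 1.00, the highest of the series, against -6.75 to -0.03 on the other 22. Hoxd13 was thus at opposite extremes on arrays that shared high Hoxb8 and Hoxd4. Hoxd10, Hoxd11 and Hoxd12 were highest on WT day 7 replicate 1 as well, at -1.52, -1.96 and -2.23. Averaged over Hoxd10 to Hoxd13 that array lay 4.30 above the medians, against -0.55 and -0.80 on Card9-/- day 0 replicates 1 and 2 and -1.04 to 1.56 on the other 22.

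WT day 7 replicate 1 was also low in the HoxA cluster. Hoxa7 was at 2.04 there, against 3.61 to 4.80 on the other 22 arrays, and at 4.36 and 4.69 on Card9-/- day 0 replicates 1 and 2. Hoxa9 was at -3.29, against -1.56 to -0.23 on the 22, and its second probe was at -3.48. Hoxa10 was at -1.50, against 0.18 to 1.50. Hoxa6, Hoxa11 and Hoxa13 were likewise below every other array on WT day 7 replicate 1, at -4.17, -2.03 and -0.53. Hoxa13 was also low on Card9-/- day 0 replicates 1 and 2, at 0.35 and 0.78, against 0.90 to 2.18 on the 22. Its dimmer second probe was at -2.67 and -1.85 on those Card9-/- arrays, against -2.29 to -0.75, so only replicate 1 was below by that probe. All 11 HoxA genes were below their medians on this array, by 1.60 on average, and they stayed below under normexp, quantile normalization and the submitters' values. On Card9-/- day 0 replicates 1 and 2 the HoxA mean lay at 0.00 and 0.11, within the -0.44 to 0.43 of the 22. WT day 7 replicate 1 was the highest array for 14 and the lowest for 9 of the 31 Hox genes. It had 15 of the 31 more than 1 above their medians, but most of the 31 were not well above background on every array, and dim log2 values spread widely. Among the 14 Hox genes well above background on every array, 3 were more than 1 above their medians there and 6 more than 1 below. Of the 16995 other genes of that class, 2.31% were above and 1.58% below. On Card9-/- day 0 replicate 1, 5 of the 14 were more than 1 above and 2 below, where 2.11% and 3.4% of the 16995 genes were. On replicate 2, 2 of the 14 were above and 1 below, where 1.71% and 2.9% of the 16995 genes were.

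**Figure D2:**
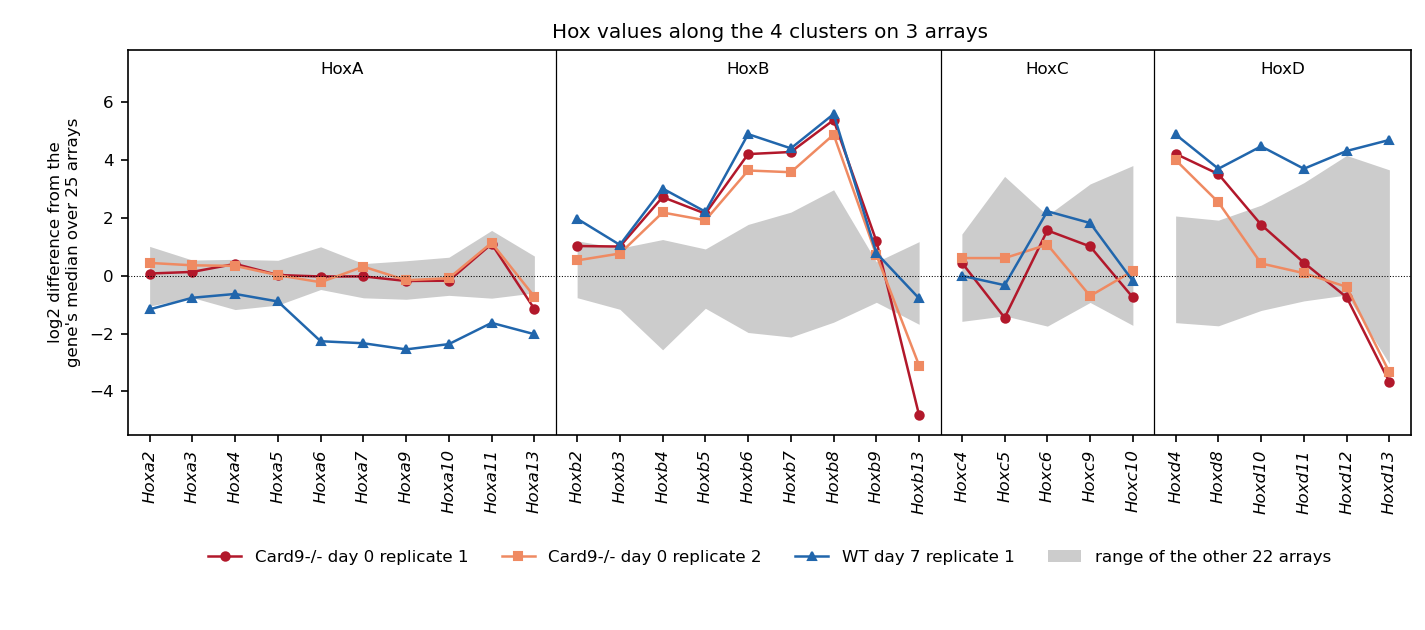
Log2 difference from the median of each Hox gene over 25 arrays, along the 4 clusters in order of number. Lines are Card9-/- day 0 replicates 1 and 2 and WT day 7 replicate 1, and the grey band spans the other 22 arrays. The 3 lines run together from Hoxb2 to Hoxb9 and at Hoxd4 and Hoxd8, and part at Hoxa6 to Hoxa11 and from Hoxd10 to Hoxd13. At Hoxa13 all 3 lie below the median.

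The start regions of genes that moved together, and of Hoxa7 as a bright HoxA gene that stayed inside the range of the 22 arrays on Card9-/- day 0 replicates 1 and 2, are printed for the reader to inspect. They are the 250 bases before the RefSeq start, on build GRCm38.p6, read 5′ to 3′ on the strand of the gene. Capitals mark TTTATG, a motif bound by CDX proteins, or CATAAA, which is TTTATG read on the other strand.
Hoxb4 promoter, chr11:96318017-96318266, plus strand: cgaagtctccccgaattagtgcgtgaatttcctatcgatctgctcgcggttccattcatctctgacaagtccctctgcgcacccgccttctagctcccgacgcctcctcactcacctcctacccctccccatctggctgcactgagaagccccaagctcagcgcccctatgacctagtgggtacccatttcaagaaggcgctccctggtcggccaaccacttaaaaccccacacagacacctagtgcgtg
Hoxb8 promoter, chr11:96281655-96281904, plus strand: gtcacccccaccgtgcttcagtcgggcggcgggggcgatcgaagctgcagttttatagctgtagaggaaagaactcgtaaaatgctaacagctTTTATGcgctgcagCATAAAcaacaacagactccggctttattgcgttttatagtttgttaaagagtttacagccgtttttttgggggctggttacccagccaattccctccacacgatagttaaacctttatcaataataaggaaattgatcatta
Hoxd4 promoter, chr2:74721728-74721977, plus strand: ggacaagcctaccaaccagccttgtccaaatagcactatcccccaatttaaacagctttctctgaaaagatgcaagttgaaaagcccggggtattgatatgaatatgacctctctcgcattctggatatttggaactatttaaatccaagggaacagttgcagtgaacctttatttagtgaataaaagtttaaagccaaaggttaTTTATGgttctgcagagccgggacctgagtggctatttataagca
Hoxd8 promoter, chr2:74704365-74704614, plus strand: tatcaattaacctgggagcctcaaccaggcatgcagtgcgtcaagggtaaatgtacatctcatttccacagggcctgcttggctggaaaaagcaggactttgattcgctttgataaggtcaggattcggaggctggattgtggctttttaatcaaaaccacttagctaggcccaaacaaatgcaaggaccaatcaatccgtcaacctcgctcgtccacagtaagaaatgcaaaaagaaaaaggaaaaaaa
Hoxa7 promoter, chr6:52218574-52218823, minus strand: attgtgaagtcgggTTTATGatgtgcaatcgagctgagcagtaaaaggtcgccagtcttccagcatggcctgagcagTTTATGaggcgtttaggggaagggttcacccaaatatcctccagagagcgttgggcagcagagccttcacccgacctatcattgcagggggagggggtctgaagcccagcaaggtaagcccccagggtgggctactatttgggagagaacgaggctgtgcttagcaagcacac
RefSeq start regions were at hand for 22 Hox genes, in 24 rows. TTTATG, counted on both strands, stood in 5 of the 24 (20.8%) and in 10.8% of all 32851 start regions of the same length. Hoxb8 and Hoxa7 held 2 matches each and Hoxd4 held 1, and those of Hoxb4 and Hoxd8 held none. Genes high on the 3 arrays were thus found with and without the letters. TGATNNAT, which Hox proteins bind together with PBX, stood in 4 of the 24 (16.7%) and in 7.68% of all. TATAAA stood in 4 of the 24 and in 12.4% of all. No matches overlapped in the regions shown. The Hox regions held a median of 12.5 CpG, against 6.0 over all.

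Hox genes varied widely between mice of 1 group. Among 17009 genes well above background on every array, the median within-group SD was 0.24 on the log2 scale and 90% were at or under 0.53. All 14 Hox genes of that class were above this median and 7 were above 0.53. Hoxb13 varied most, with a within-group SD of 1.11 at the 99.6th percentile. Hoxb5 (0.73), Hoxa11 (0.70), Hoxa9 (0.61), Hoxb2 (0.58) and Hoxa13 (0.57) came next. Among the steadiest were Hoxa3 (0.27), Hoxa5 (0.35) and Hoxa2 (0.38), all towards the low-numbered end of HoxA. Part of this spread came from the 3 arrays. Over the other 22, Hoxb13 had a within-group SD of 0.69, at the 96.9th percentile, Hoxa11 0.56 and Hoxb5 0.52, while Hoxa9 had 0.25 against a median of 0.24. On those arrays 12 of the 14 were above the median of all genes and 3 were above the value that 90% of genes did not pass. These are descriptions over shared arrays, and normexp correction lowered the SD of dim genes such as Hoxb2 to 0.31.

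Within groups, Hoxb4 to Hoxb8, Hoxd4 and Hoxd8 deviated together, with Pearson correlations of 0.68 to 0.98 over 25 arrays that share slides and scaling. Without the 3 arrays and the lone day 0 array that they leave, 21 arrays gave 0.18 to 0.93, so part of the range rests on them. Hoxb13 deviated the other way, at -0.75 to -0.65 with these 7 genes, and at -0.69 to -0.53 over the 21 arrays. Hoxa6, Hoxa7, Hoxa9 and Hoxa10 deviated together at 0.71 to 0.97, and at -0.21 to 0.82 over the 21 arrays. WT day 12 replicate 4 showed the opposite movement of Hoxb13 and the 7 genes on its own array: Hoxb13 was at 4.66, the lowest of the 22, and Hoxb6, Hoxb7, Hoxb8 and Hoxd4 were each the highest of the 22.

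The design asks how the colon changes with DSS and recovery in each genotype and whether the genotypes differ. One limma model of 6 group means was fitted over 25496 genes, with p-values adjusted by Benjamini-Hochberg over all genes of a contrast and calls at adjusted p under 0.05. In Card9-/- mice at day 7 against day 0, 4 of 31 Hox genes (12.9%) passed, against a background of 19.6% of all genes (6.9% higher and 12.7% lower). Hoxb13 rose, and Hoxb9, Hoxa3 and Hoxb3 fell. The median Hox difference was -0.37, against -0.08 over all genes. Of the 31 Hox genes, 1 was higher and 5 were lower with no overlap of the groups, while 27.1% of all genes did not overlap. The share of Hox genes called was thus below that of all genes, and without the 3 arrays 0 of 31 passed while 4.29% of all genes did.

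Hoxb13 was at 5.65, 6.53, 7.15 and 5.91 in Card9-/- mice at day 7 and at 7.28, 7.53, 6.34, 5.81 and 6.73 at day 12, against 1.52, 3.24 and 6.95 at day 0. The groups overlapped, since the third day 0 mouse lay among the later ones. Means were 6.31 ± 0.67 at day 7 (SD, n = 4) and 6.74 ± 0.69 at day 12 (SD, n = 5), against 3.90 ± 2.78 at day 0 (SD, n = 3). The log2 difference was 2.41 ± 0.82 at day 7 (SE, adjusted p = 0.0424, limma) and 2.84 ± 0.78 at day 12 (SE, adjusted p = 0.0317, limma), which are 5.32-fold and 7.14-fold. Both contrasts share the same 3 day 0 arrays. Without the 3 arrays set apart, Hoxb13 turned round, to -0.64 at day 7 (adjusted p = 0.742, limma) and -0.21 at day 12 (adjusted p = 0.997, limma), with 1 day 0 array left whose spread is taken from the other groups. Within slides, the day 7 difference was 0.56 on slide 2 (1 array against 2) and 4.40 on slide 4 (1 against 1), and the day 12 difference was 0.71 (1 against 2) and 5.61 (2 against 1). With slide as a block both calls of Hoxb13 were lost, at 2.18 for day 7 (adjusted p = 0.0893) and 2.72 for day 12 (adjusted p = 0.0668, limma). In WT mice Hoxb13 was at 5.56, 6.89, 5.75, 5.65 and 6.97 at day 7 and 7.02, 6.04, 6.01, 4.66 and 5.80 at day 12, against 6.83, 6.51 and 6.50 at day 0. Those WT groups overlapped and no WT contrast passed the test for this gene.

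The day 7 call of Hoxb13 was lost when any of several single arrays was left out. Without Card9-/- day 0 replicate 1 the difference was 1.22 (adjusted p = 0.351, limma), and without replicate 2 it was 2.08 (adjusted p = 0.166, limma). Without Card9-/- day 7 replicates 2, 3 or 4 the adjusted p of Hoxb13 was 0.0832, 0.109 or 0.0578. It lay between 0.0502 and 0.0509 without WT day 0 replicates 1, 2 or 3, WT day 12 replicates 2 or 3, or Card9-/- day 12 replicate 5. The day 12 call was lost without Card9-/- day 0 replicates 1 (1.64, adjusted p = 0.298) or 2 (2.50, adjusted p = 0.171), and without Card9-/- day 12 replicates 1, 2, 3 or 5 (adjusted p from 0.0505 to 0.0668, limma).

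Hoxb9, the gene next to the mid-cluster block in HoxB, fell at day 7 in Card9-/- mice. It was at 1.52, 1.39, 1.29 and 1.64 at day 7, against 3.28, 2.80 and 2.04 at day 0. The groups did not overlap, as for 27.1% of all genes. The difference was -1.25 ± 0.31 (SE, adjusted p = 0.00658, limma). Without Card9-/- day 0 replicate 1 it was -0.96 (adjusted p = 0.0628, limma), and without the 3 arrays -0.58 (adjusted p = 0.370, limma). Within slides it was -0.90 and -1.63. At day 12 Hoxb9 was at 2.10, 2.13, 2.11, 2.08 and 2.37, above all 4 day 7 values, where 11.2% of all genes did not overlap. That day 12 difference against day 7 was 0.70 ± 0.27 (SE, adjusted p = 0.122, limma) and passed only when the spread came from those 2 groups alone (adjusted p = 0.0239) or the 3 arrays were left out (adjusted p = 0.0381).

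Hoxa3 was at 1.49, 1.03, 0.77 and 1.41 in Card9-/- mice at day 7, against 1.66, 1.89 and 2.07 at day 0. The groups did not overlap, as for 27.1% of all genes, and the difference was -0.70 ± 0.21 (SE, adjusted p = 0.0204, limma). It kept its direction without the 3 arrays, at -0.89 (adjusted p = 0.0671, limma). With slide as a block Hoxa3 was at -0.59 (adjusted p = 0.0559, limma). The dimmer second Hoxa3 probe gave -0.22 (adjusted p = 0.817, limma). Without Card9-/- day 0 replicates 2 or 3, or day 7 replicates 2 or 3, the adjusted p of Hoxa3 was 0.0650, 0.0932, 0.0539 or 0.0706. In WT mice Hoxa3 was at 0.76, 1.50, 1.31, 1.85 and 1.27 at day 7, against 1.96, 2.06 and 1.87 at day 0. These groups did not overlap either, as for 11.9% of all genes. The WT difference of -0.62 ± 0.20 did not pass (SE, adjusted p = 0.0778, limma), and was -0.48 without the 3 arrays (adjusted p = 0.147, limma).

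Hoxb3 was at -2.40, -2.84, -3.43 and -2.21 in Card9-/- mice at day 7, against -1.25, -1.50 and -2.27 at day 0. The lowest day 0 mouse lay just under the highest day 7 mouse, and the difference was -1.05 ± 0.36 (SE, adjusted p = 0.0421, limma). The call was lost without Card9-/- day 0 replicates 1 (-0.84, adjusted p = 0.194) or 2 (-0.96, adjusted p = 0.141), without day 7 replicates 2 or 3 (adjusted p = 0.0846 and 0.138), without WT day 12 replicate 3 (adjusted p = 0.0504), and without the 3 arrays (-0.45, adjusted p = 0.719, limma). The second Hoxb3 probe, well above background on 12 arrays, gave -2.56 (adjusted p = 0.121, limma). With slide as a block Hoxb3 was at -0.85 (adjusted p = 0.125, limma). With normexp background correction it was at -0.44 (adjusted p = 0.172, limma).

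In Card9-/- mice at day 12 against day 0, 2 of 31 Hox genes (6.45%) passed, against a background of 6.94% of all genes (3.7% higher and 3.24% lower). Hoxb13 is given above. Hoxb5, a low-numbered gene of the mid-cluster block, was at -2.03, -1.71, -1.53, -0.93 and -1.09 at day 12, against 1.10, 0.87 and -0.72 at day 0. The groups did not overlap, as for 16.6% of all genes, and the difference was -1.88 ± 0.51 (SE, adjusted p = 0.0306, limma). Without the 3 arrays it was -0.74 (adjusted p = 0.809, limma), and then 0 of 31 Hox genes and 0.561% of all genes passed. Without Card9-/- day 0 replicates 1 or 2 it was -1.53 or -1.65 (adjusted p = 0.195 and 0.170), and without Card9-/- day 12 replicates 1, 2 or 3 the adjusted p of Hoxb5 was 0.0560, 0.0579 or 0.0617. With slide as a block Hoxb5 was at -1.63 (adjusted p = 0.0805, limma). Within slides it was -1.004 (1 array against 2) and -2.50 (2 against 1).

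**Figure D3:**
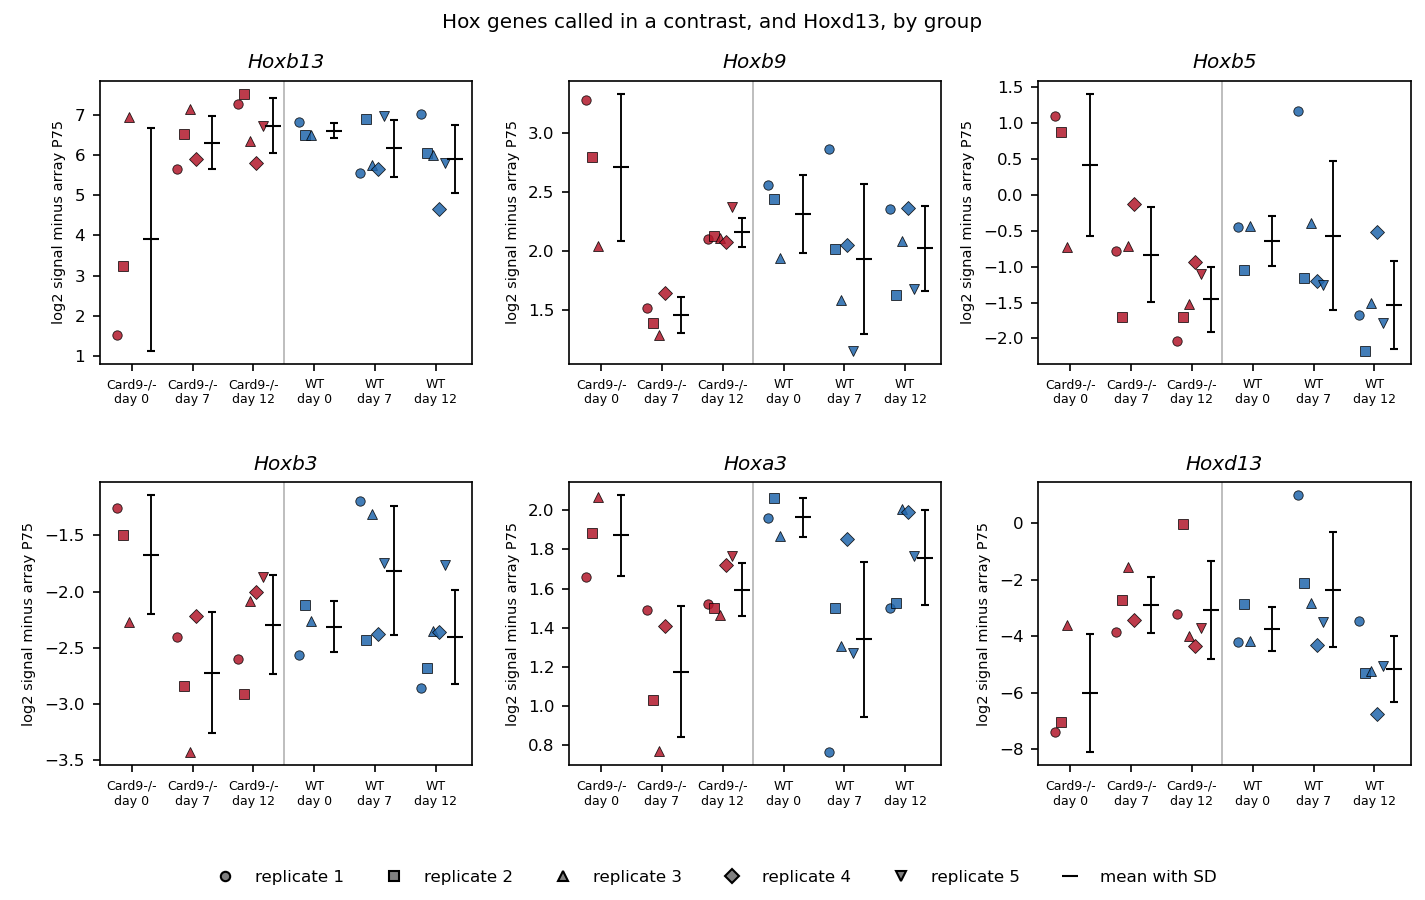
Log2 signal minus the array 75th percentile for the 5 Hox genes called in a contrast and for Hoxd13, by group. Each point is 1 array, marked by replicate number, and the bar to its right is the group mean with SD. For Hoxb13, Hoxb9, Hoxb5 and Hoxb3 the first 2 Card9-/- day 0 replicates lie apart from the third.

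No Hox gene passed the test in the other 9 contrasts. The backgrounds there were 0.00392% (day 0), 0.549% (day 7) and 0.0706% (day 12) for Card9-/- against WT, 4.32% (day 7 against 0), 0.486% (12 against 7) and 1.73% (12 against 0) within WT, and 7.69% for day 12 against 7 in Card9-/-. For the genotype difference in the change they were 0.00392% from day 0 to 7 and 0.00784% from day 7 to 12. At an unadjusted p under 0.05, limma counted 4, 3 and 4 Hox genes (12.9%, 9.68% and 12.9%) in the genotype contrasts at day 0, 7 and 12, against 4.97%, 16.5% and 8.85% of all genes. Within WT it counted 6, 10 and 1 (19.4%, 32.3% and 3.23%) for day 7 against 0, 12 against 7 and 12 against 0, against 17.0%, 13.1% and 13.3% of all genes. For day 12 against 7 in Card9-/- it counted 2 (6.45%), against 22.7%. For the genotype differences in change it counted 7 and 2 (22.6% and 6.45%), against 11.6% and 7.71%. At day 0, Hoxb8 was at 1.78, 1.27 and -3.89 in Card9-/- mice, against -3.61, -3.38 and -4.90 in WT mice. The difference of 3.69 ± 1.39 did not pass (SE, adjusted p = 0.818, limma), it was 0.08 without the 3 arrays, and the groups overlapped through the third Card9-/- mouse. Hoxd8, not well above background on any WT day 0 array and well above on 2 of 3 Card9-/- day 0 arrays, was at least 3.57-fold brighter in Card9-/- mice by group means, a bound that rests on replicates 1 and 2.

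In WT mice at day 7 against day 0 the smallest adjusted p was that of Hoxd11 (adjusted p = 0.0727, limma), which was well above background on 2 of 5 day 7 arrays and on no day 0 array. It was at least 1.75-fold brighter at day 7, from group means of -3.90 at day 7 and -6.20 at day 0. Its adjusted p was 0.150 without the 3 arrays set apart (limma). The bound rests on WT day 7 replicates 1 and 5, at -1.96 and -2.44. The second Hoxd11 probe was at -0.87 and -5.85 on these arrays, so it was high on replicate 1 only. The median Hox difference was 0.38 there, against 0.03 over all genes, and without the 3 arrays 0.18, against 0.04. At day 12 against day 7 in WT it was -0.48, against 0.01, and without the 3 arrays -0.17, against 0.00. Hoxb2 (-1.08 ± 0.36 SE, adjusted p = 0.184, limma) and Hoxd13 (-2.82 ± 0.96 SE, adjusted p = 0.196, limma) had the smallest p-values, and without the 3 arrays they were at -0.74 (adjusted p = 0.285) and -1.98 (adjusted p = 0.253, limma). WT day 7 replicate 1 was the highest WT day 7 array for Hoxb2 (-0.86, against -3.44 to -1.77 on the other 4) and for Hoxd13 (1.00, against -4.32 to -2.11).

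Genes near the ends of the clusters were compared as well. Hoxa13 had its lowest mean, 0.84 ± 0.53, in Card9-/- mice at day 0 (SD, n = 3), where the arrays were at 0.35, 0.78 and 1.40. Its day 7 values were 1.61, 1.64, 1.76 and 1.65, above every day 0 value. Groups did not overlap for 27.1% of all genes there, and no contrast passed for Hoxa13. Hoxc4, a low-numbered HoxC gene, was at -3.03, -2.87 and -2.88 in Card9-/- mice at day 0, above the -3.39, -3.71 and -3.08 of WT mice. In that contrast 16.25% of all genes did not overlap. The smallest adjusted p of Hoxc4 in the 11 contrasts was 0.248 (limma). Hoxc10, the highest-numbered HoxC gene that passed the filter, was well above background on 9 arrays, with no group in which all arrays were.

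Some regional genes of the colon differed on the same 3 arrays. Their lists came from background knowledge but were chosen with earlier results of these data known, so they are no independent check. The proximal-high list held Slc51a and Slc51b (the basolateral bile acid carrier), Aqp4 (a water channel), Car1 (a carbonic anhydrase) and Cyp2c55. Its mean over 5 genes lay 2.35 and 2.30 above the medians on Card9-/- day 0 replicates 1 and 2 and 1.73 on WT day 7 replicate 1. The other 22 arrays lay between -1.34 and 0.47, with WT day 12 replicate 4 the highest. Slc51a was at 6.15, 5.39 and 6.16 on the 3 arrays, against -4.02 to 1.40 on the 22. Car1 was at 8.74, 8.53 and 8.69, against 5.29 to 7.09, and Cyp2c55 at 6.71, 6.64 and 6.61, against -0.29 to 4.96. These did not overlap. In each of the 3 arrays 4 of the 5 genes were above their medians. Aqp4 went the other way, at 4.29, 4.95 and 2.06 on the 3 arrays, against 4.73 to 6.11 on the 22.

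The distal-high list (Insl5, a hormone of distal colon cells, the sodium channel subunits Scnn1a and Scnn1b, the proton pump Atp12a, and Ly6g6c) lay at -2.11 and -1.27 on Card9-/- day 0 replicates 1 and 2. It lay at -0.87 on WT day 7 replicate 1, inside the -1.16 to 0.99 of the 22 arrays. Atp12a was at -5.14 and -4.07 on the Card9-/- arrays but at 2.60 on WT day 7 replicate 1, against -0.38 to 4.46 on the 22. Insl5 was at 1.82, 2.83 and 1.39 on the 3 arrays, below the 3.33 to 5.99 of all 22, so the WT array was low in this gene too. The list had 4, 2 and 3 of 5 genes below their medians on the 3 arrays. The small intestine list had 6, 6 and 5 of 8 genes above their medians. Slc10a2, the apical bile acid carrier of the ileum, was at 4.46, 3.67 and 4.28 on the 3 arrays, against -2.73 to 0.71. Sis, the sucrase-isomaltase of the small intestine, was at 1.51, -0.71 and 1.64, against -6.30 to -1.39. Lyz1, the lysozyme of Paneth cells, went the other way on the Card9-/- arrays, at 0.95 and 0.67, against 1.02 to 4.30 on the 22. Tbx3, a T-box factor, was at 3.38, 2.92 and 3.14, against -1.27 to 1.52. It is 1 of 12 tested regional transcription factors of the gut, and the list as a whole was mixed. On the 3 arrays 6, 5 and 8 of the 12 were above their medians and 5, 7 and 4 below. The list means were 0.86, 0.27 and 0.49, against -0.43 to 0.77 on the 22. Whether the stretch of colon taken differed between mice was not tested, as no label records it.

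**Figure D4:**
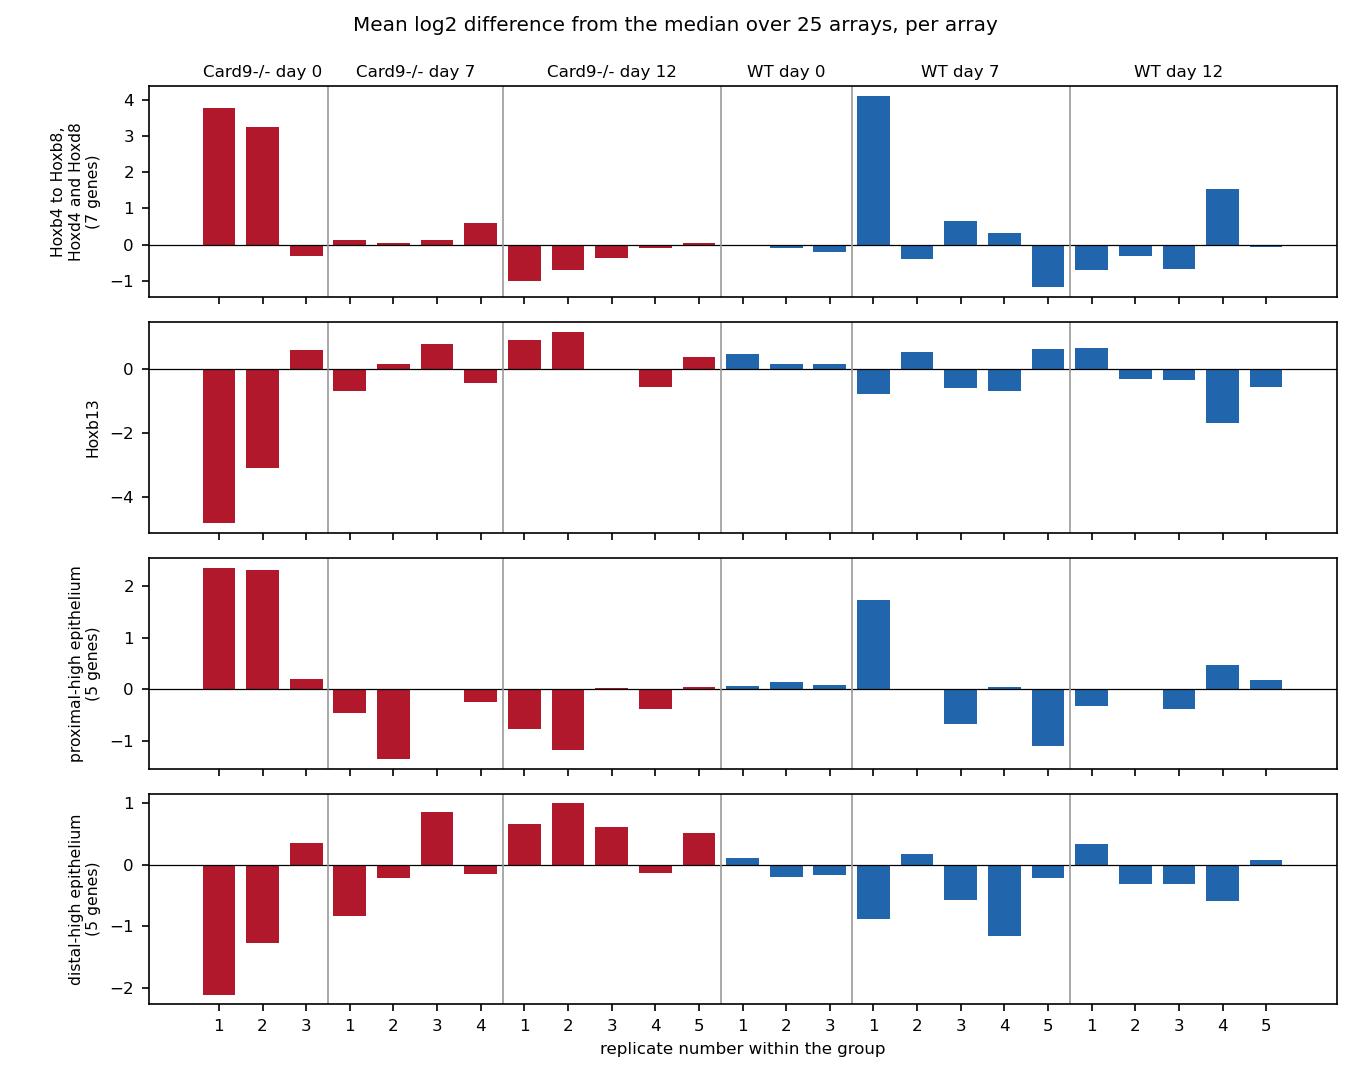
Mean log2 difference from the median over 25 arrays, per array, for Hoxb4 to Hoxb8 with Hoxd4 and Hoxd8, for Hoxb13, and for the proximal-high and distal-high lists of 5 genes each. Red bars are Card9-/- arrays and blue bars WT arrays. Card9-/- day 0 replicates 1 and 2 stand at 3.79 and 3.25 in the top panel and at 2.35 and 2.30 for the proximal-high list.

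In the same Card9-/- contrasts that called Hox genes, members of these lists passed too. Of all genes, 6.9% were called higher and 12.7% lower at day 7 against day 0. At day 7 against day 0, the proximal-high list had 3 of 5 genes lower and 0 higher. They were Cyp2c55 (-4.02, adjusted p = 0.00314), Slc51a (-5.10, adjusted p = 0.0301) and Car1 (-1.65, adjusted p = 0.0458, limma). Without the 3 arrays, which leaves 1 day 0 array, these genes were at -2.33, -1.34 and -0.25. The distal-high list had 1 higher and 1 lower of 5 tested. Atp12a was at 5.52 (adjusted p = 0.00337, limma) and at 0.86 without the 3 arrays (adjusted p = 0.797, limma), while Ly6g6c was at -2.05 (adjusted p = 0.000113) and at -2.25 without them (adjusted p = 0.00684, limma). Markers of other cell types moved in this contrast as well. Of the fibroblast list, 11 of 12 were higher and 0 lower. Its mean lay at 0.29 to 1.42 at day 7, against -1.43 to -0.89 at day 0. Without the 3 arrays the differences of those 11 were no smaller, as for Col1a1 (1.98 and 1.99) and Lum (1.90 and 2.63). Of the leukocyte list, 10 of 14 were higher and 0 lower, at 0.76 to 1.27 at day 7, against -2.96 to -1.51 at day 0. Without the 3 arrays the differences of those 10 were smaller, as for S100a9 (12.88 and 12.79) and Ms4a1 (4.055 and 0.51). Of the smooth muscle list, 2 of 11 were lower and 0 higher, at -1.01 to 0.35 at day 7, against 0.32 to 1.07 at day 0. These 2 were Actg2 (-1.96, and -1.495 without the 3 arrays) and Des (-1.44 and -0.92). Pancreatic acinar genes averaged 13.8 and 14.2 above their medians on Card9-/- day 7 replicates 2 and 3, 13.3 on Card9-/- day 12 replicate 1 and 7.72 on WT day 12 replicate 5. Without those 4 arrays 0 of 31 Hox genes passed in either contrast. Their part in the Hox calls was likewise not tested.

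Partners and regulators of Hox genes were tested in the same contrast, where 6.9% of all genes were called higher and 12.7% lower. Of 16 protein-coding neighbours of the Hox clusters, 1 was higher and 4 were lower there, so calls were not particular to Hox regulators. The TALE cofactors, which bind DNA with Hox proteins, had 0 of 9 higher and 1 lower at day 7 against day 0 in Card9-/- mice (Pbx2, -0.38, adjusted p = 0.0381, limma). Of the Polycomb and Trithorax genes, which hold Hox genes off or on, 1 of 22 was higher (Wdr5, 0.37, adjusted p = 0.00544) and 6 were lower, among them Rnf2 (-0.48, adjusted p = 0.00961) and Phc1 (-0.46, adjusted p = 0.0157, limma). None of these 8 passed without the 3 arrays, where 1 day 0 array is left, though their differences stayed close, at 0.38 for Wdr5, -0.43 for Rnf2, -0.56 for Phc1 and -0.35 for Pbx2. Cdx2, a caudal-type factor that acts upstream of Hox genes in the embryo, fell (-1.26, adjusted p = 0.00685, limma), but was at -0.74 without the 3 arrays (adjusted p = 0.409, limma). It was at 5.81, 5.39 and 4.95 on the 3 arrays. Of the retinoic acid genes, 4 of 12 were higher and 3 lower, and 2 were called without the 3 arrays. Aldh1a3, which makes retinoic acid, rose by 4.58 (adjusted p = 1.9e-05, limma), and Aldh1a1, a related enzyme, fell by 2.90 (adjusted p = 0.00340, limma). Without the 3 arrays Aldh1a3 was at 5.49 (adjusted p = 0.0013) and Aldh1a1 at -1.44 (adjusted p = 0.161, limma). Aldh1a1 was at 6.45, 6.45 and 5.66 on the 3 arrays, against 1.74 to 4.46 on the other 22.

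Of 38 other probes inside the Hox clusters, 8 lay outside the range of the other 22 arrays on all 3 arrays. Taken singly, 19, 8 and 15 did so on Card9-/- day 0 replicates 1 and 2 and WT day 7 replicate 1. Several of the 8 found on all 3 arrays shared a name, so they stand for fewer transcripts. Some of the 19 lay just under the range at the dim end, as a HOTAIR probe at -7.42, against -7.35 to -5.84. That probe was well above background on no array. The same count over other probes of the array is not given, so these counts describe the Hox clusters only. Gm11538 in HoxB was at -3.46, -2.35 and -1.97 on Card9-/- day 0 replicates 1 and 2 and WT day 7 replicate 1, against -1.05 to 0.57 on the other 22. AI448005 in HoxD was at 1.08, 0.33 and 1.06, against -5.85 to -1.61. Neither range overlapped. In HoxA, Hoxaas3 was at -3.30 on WT day 7 replicate 1, against -0.77 to 0.59 on the 22, and at -0.05 on both Card9-/- arrays. Hoxa11os, antisense to Hoxa11, was at 2.98 there, against 4.91 to 6.06. Evx1, the even-skipped homeobox gene at the end of HoxA, was at -4.18 there, against -1.11 to 1.05. These 3 transcripts moved with the HoxA genes on that array. The 16 protein-coding neighbours outside the clusters averaged -0.15, -0.07 and -0.12 on the 3 arrays, against -0.11 to 0.32 on the 22.

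Hoxb13, the most variable of the Hox genes seen on every array, was set against 12802 genes by the correlation of deviations from the group means over 25 arrays. Among the most like it were B3gnt7 (r = 0.95, and 0.91 without Card9-/- day 0 replicates 1 and 2), Nxpe4 (0.94 and 0.89) and Adh1, an alcohol dehydrogenase (0.94 and 0.92). AI854703, Gpr137b-ps, Ctse, Exosc6, Tgm3 and Gm7932 followed, at 0.93 to 0.91, and at 0.93 to 0.81 without the 2 arrays. The most opposite were Exoc3l4 (-0.87 and -0.78), Lpin2 (-0.86 and -0.84), Abhd17b (-0.84 and -0.76), Pdgfc (-0.83 and -0.87) and Fyb2 (-0.82 and -0.77). B3gnt7 was at -2.81 and -1.48 on Card9-/- day 0 replicates 1 and 2 and at -0.67 on WT day 12 replicate 4, the lowest of the other 22. Nxpe4, Tgm3 and Exosc6 also had WT day 12 replicate 4 as the lowest of the 22. These correlations describe shared arrays and slides and carry no test.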

How the data were processed

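RNA of the colon of 25 mice was hybridised to 1-colour Agilent arrays on 4 slides, 1 array per mouse. The deposited scanner files hold the processed intensity of each spot, background-subtracted by Agilent Feature Extraction 10.7.3.1 per the file headers. The authors also deposited a table of values, read here as log2 values, whose scaling and centring are not given in the sources used here. From the intensities, log2 minus the 75th percentile of each array over non-control spots was computed, outlier spots were left out (Hoxc10 then has 1 missing value), spots of 1 probe were averaged, probes well above background on 3 or more arrays were kept, and the probe with the highest mean stood for a gene, which left 25496 genes. limma 3.58.1 (lmFit and eBayes, R 4.3.3) fitted 6 group means, with 11 contrasts and Benjamini-Hochberg adjusted p under 0.05 as a call. Detection bounds use the higher of the lowest well-above signal of an array and the measured signal. Promoter letters were counted in RefSeq GRCm38.p6. The number of arrays limits the precision. The limma p-values set a difference against the spread between arrays within groups. With 1 array per mouse, that spread holds differences between mice and between slides together.

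The members and gene lists were chosen with earlier results of these data known. Genes were named where a contrast called them or where they end a cluster or lead the likeness to Hoxb13. Hoxb4, Hoxb6 to Hoxb8, Hoxd8, Hoxa6, Hoxa7, Hoxa10 and Hoxd10 to Hoxd12 were chosen after their values were seen, as was the leaving out of the 3 arrays set apart. A few genes that meet the naming rule are not reported here. The fit was tested on simulated data made from 25183 genes with 200 changed in Card9-/- day 7 against day 0. It called 48.0%, 72.0%, 84.0% and 90.0% of those changed by 1, 2, 3 and 4 on the log2 scale. It also called 13 genes that had not been changed, and 1 gene in a contrast without changes. How the fit calls genes when a group holds outlying arrays, as the Card9-/- day 0 group does here, was not tested. Alternatives were normexp correction, quantile normalization, the deposited table, other filters, single probes, a slide block, a replicate block, fewer groups and each array left out.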

Additional observations from a re-analysis of the deposited data

Results flagged for a closer look

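In groups of 4 or 5 arrays, 13 of 124 sets of Hox values (10.5%) held an array far from the others by Dixon's criterion. Chance gives about 1 in 20 for independent sets. These sets share arrays and their genes move together, so the 2 shares cannot be compared. Only Hox genes were put to this criterion, so whether their share differs from that of other genes was not tested. Of the flagged genes, Hoxc6, Hoxc10, Hoxd8, Hoxd10 and Hoxd12 were well above background on only 4 to 9 arrays, and dim log2 values spread widely. WT day 7 replicate 1 accounted for 5 of the 13 sets. Hoxa7 was at 2.04 there (nearest 4.12), Hoxa9 at -3.29 (nearest -0.89) and Hoxa10 at -1.50 (nearest 0.79), all low, while Hoxb8 at 1.99 (nearest -2.93) and Hoxc6 at -2.62 (nearest -4.72) were high. In WT mice at day 12, Hoxb7 was high on replicate 4 at 0.43 (nearest -1.48), Hoxa2 on replicate 3 at -0.72 (nearest -1.64), Hoxd12 on replicate 3 at -3.86 (nearest -6.42), Hoxc10 on replicate 5 at -1.40 (nearest -5.21) and Hoxd10 on replicate 5 at -3.56 (nearest -6.50). In Card9-/- mice at day 12, Hoxb9 was high on replicate 5 at 2.37 (nearest 2.13), Hoxd13 was high on replicate 2 at -0.034 (nearest -3.22), and Hoxd8 was low on replicate 1 at -5.75 (nearest -4.59), where it was not well above background. Groups of 3 were not tested, so the day 0 arrays could not be marked.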

How the results depend on the processing

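The count of Hox genes called in Card9-/- mice at day 7 against day 0, 4 here, was 2 with no filter on dim probes, 1 with slide as a block, 1 with only the groups of the contrast, and 0 without the 4 arrays high in acinar genes or without the 3 arrays set apart; leaving out 1 array gave 1 to 11 (1 without Card9-/- day 0 replicate 1 or 2 and Card9-/- day 7 replicate 2 or 3, 2 without WT day 12 replicate 3, 9 without Card9-/- day 0 replicate 3, 11 without WT day 7 replicate 1). At day 12 against day 0, 2 here, it was 0 with the slide block, with only those groups, without the 4 arrays and without the 3, and 0 to 8 without 1 array (0 without Card9-/- day 0 replicate 1 or 2 and day 12 replicates 1, 2 or 3, 1 without day 12 replicate 5, 5 without WT day 7 replicate 1, 8 without Card9-/- day 0 replicate 3). At day 12 against day 7 in Card9-/- it was 1 with only those groups and 1 without the 3 arrays, against 0 here. Hoxb13 reversed without the 3 arrays, to -0.64 at day 7 and -0.21 at day 12. The deviations of same-numbered arrays correlated at over 0.1 in every pair of no contrast (nearest were WT day 12 against 7, at 0.008 to 0.333, and WT day 12 against 0, at 0.069 to 0.214), so they were taken to share only a number; with a replicate block, WT day 7 against day 0 called 1 Hox gene, against 0 here, and leaving out 1 array there gave 0 to 2. Leaving out 1 array gave 0 to 1 for Card9-/- against WT at day 0 and for the genotype difference in change from day 0 to 7. The share of all genes called is not set beside these counts. They therefore describe the fits and do not show how Hox genes compare with other genes. The causes of these changes were not tested beyond fewer arrays in the fits that leave them out. Dim HoxC and HoxD signals lie near background, where log2 values spread widely.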
